A study of Mus musculus with 12 samples.

Results

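The genes described here are a set of 38 that encode the enzymes of cholesterol and fatty acid synthesis and the proteins that control them. The set was given as a list of gene symbols. Each symbol was matched to 1 of the 55401 Ensembl gene identifiers of the table through the GENCODE M21 annotation, and all 38 passed the filter on low counts that left 16135 genes for testing. They were followed through 12 RNA-seq libraries of cultured cells from the subventricular zone, the germinal layer along the lateral ventricles of the brain, of CD1 mice. Postnatal OPC were oligodendrocyte precursor cells made from postnatal day 0 to 2 animals by dissociating primary neurospheres, floating clusters of stem and progenitor cells, and keeping the cells attached as monolayers for 2 days in medium with 10 ng/mL each of FGF and PDGF-AA. Adult NSC were neurospheres from animals of 2 months, and postnatal NSC were neurospheres from animals of postnatal day 0 to 2, both kept for 6 to 7 days in medium that held EGF (20 ng/mL), FGF (10 ng/mL) and heparin (2 µg/mL). All media were serum-free with 2% B27, a supplement of defined composition, and all cells were primary and untreated. The submitters' design text gives 4 independent litters as the replicates, with 4 libraries per group, and p-values below measure the spread between those libraries.

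Cholesterol is built from acetyl-CoA. The mevalonate arm of the pathway makes isoprenoid units and joins them to farnesyl diphosphate, and the sterol arm turns that product through squalene and lanosterol into cholesterol. Fatty acids are built from the same acetyl-CoA by acetyl-CoA carboxylase and fatty acid synthase, and are then lengthened by elongases and given double bonds by desaturases. Both routes are switched on by sterol regulatory element-binding proteins (SREBPs), which stay in the endoplasmic reticulum with their escort SCAP while sterols are plentiful and INSIG holds the complex there. Brain cells make nearly all of their own cholesterol, and cells of the oligodendrocyte lineage need both products in quantity when they build myelin.

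The libraries held 17226501 to 23651396 counts (postnatal OPC), 16756231 to 20064043 counts (adult NSC) and 38928989 to 54801726 counts (postnatal NSC). A level below is in CPM, the gene's count as a part of the scaled library size, set to a common total for all libraries. The labels of the cultures were checked on marker genes. Pdgfra, the PDGF receptor gene of OPC, was at 1433 ± 710.2 CPM in postnatal OPC, 12.2 ± 2.98 CPM in adult NSC and 230.0 ± 59.6 CPM in postnatal NSC (SD, n = 4 each). Nes, which encodes the intermediate filament protein nestin of neural stem cells, was at 745 ± 194, 2071 ± 83.4 and 1534 ± 134 CPM in the same order of groups. Not all stem cell genes followed Nes, and Sox9 and Fabp7 rose in OPC as Sox2 did: Sox2 was at 388, 387, 286 and 274 CPM in OPC 1 to 4, 217, 217, 219 and 198 CPM in adult NSC and 148, 223, 246 and 189 CPM in postnatal NSC, where OPC were the highest. Of the 7 stem cell genes 3 rose and 4 fell in OPC against postnatal NSC, and their sum was 5134 to 7884 CPM in OPC, 8915 to 9685 CPM in adult NSC and 6776 to 8146 CPM in postnatal NSC. Of 5 neuroblast and neuron genes tested 3 rose and 1 fell in that comparison, and the list summed to 1279 to 1974 CPM in OPC, 657 to 742 CPM in adult NSC and 687 to 1030.4 CPM in postnatal NSC. Of 7 OPC markers 4 rose and 0 fell in OPC against postnatal NSC, and Sox10, Olig1 and Gpr17 were not called. Summed over the 7, the level was 4844 to 10442 CPM in postnatal OPC, 2138 to 2446 CPM in adult NSC and 2900 to 3498 CPM in postnatal NSC. In adult NSC that sum was mostly Olig1 and Olig2, named here after their values were seen, at 1508 ± 132 and 622 ± 24.7 CPM. Sox10 and Gpr17, like Pdgfra, were low there at 12.4 ± 1.48 and 4.93 ± 1.73 CPM, against 136 ± 70.3 and 543 ± 408 CPM in postnatal NSC. In postnatal OPC Sox10 and Gpr17 were at 191 ± 130 and 973 ± 1203 CPM, with libraries that overlapped those of postnatal NSC. Both means were raised by postnatal OPC 2, with 382 CPM of Sox10 and 2776 CPM of Gpr17. OPC 1, 3 and 4 had 134, 156 and 91.1 CPM of Sox10 and 450, 320 and 348 CPM of Gpr17. Summed markers of mature oligodendrocytes were at 262 to 534, 148 to 187 and 330 to 909 CPM, and those of astrocytes at 1164 to 2122, 1908 to 1999 and 1567 to 2691 CPM. Microglia markers summed to at most 1.97 CPM, endothelial markers to at most 15.7 CPM and pericyte and fibroblast markers to at most 15.7 CPM in any library. These are bulk cultures, in which fewer cells of a type and less RNA per cell cannot be told apart.

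The library postnatal OPC 2 stood apart in these genes, and it is treated first because several results below rest on it. It was singled out by the levels of these same genes, so leaving it out raises most of them in OPC. Fits without it are therefore no separate support for a rise. It was the lowest of the 4 OPC libraries for 35 of the 38 genes, against 36.9% of all genes tested, and the lowest of all 12 libraries for 33 of them, against 17.2% of all genes tested. The exceptions among the OPC libraries were Scap, Elovl1 and Fads2. The 18 enzymes of the mevalonate and sterol arms were all lowest there, with a median level of 47.1% of the mean of the other 3 OPC libraries and a range of 28.1% for Idi1 to 70.7% for Pmvk. The 15 genes of fatty acid synthesis, modification and activation were at a median of 67.7%. Over all genes tested the median was 100.7%. Summed over the 18 sterol enzymes, the level was 1976 CPM in postnatal OPC 2 and 4128, 4250 and 4589 CPM in postnatal OPC 1, 3 and 4.

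Other gene groups moved in the same library. A list of 14 genes of the G1/S transition, when cells begin to copy their DNA, summed to 529.8 CPM in postnatal OPC 2 and to 1971 to 2298 CPM in the other OPC libraries. The 7 OPC markers went the other way, with 10442 CPM in postnatal OPC 2 and 4844 to 5137 CPM in the others. Among neurospheres, postnatal NSC 3 had the lowest G1/S sum, 689 CPM against 1382 to 1861 CPM in the other postnatal NSC libraries. Its sterol enzyme sum of 3086 CPM was close to the 3121 CPM of postnatal NSC 2, below 3617 and 3654 CPM in the other 2. The part of the cell cycle genes and of OPC markers in the sterol values was not tested. Without postnatal OPC 2 the median SD of the 38 genes on the log2 scale within postnatal OPC was 0.11, against 0.45 with it. In adult NSC it was 0.072 and in postnatal NSC 0.19. Over all genes tested the median SD was 0.25 in postnatal OPC and 0.14 there without postnatal OPC 2. It was 0.11 in adult NSC and 0.28 in postnatal NSC, so part of these differences is shared by all genes.

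**Figure D1:**
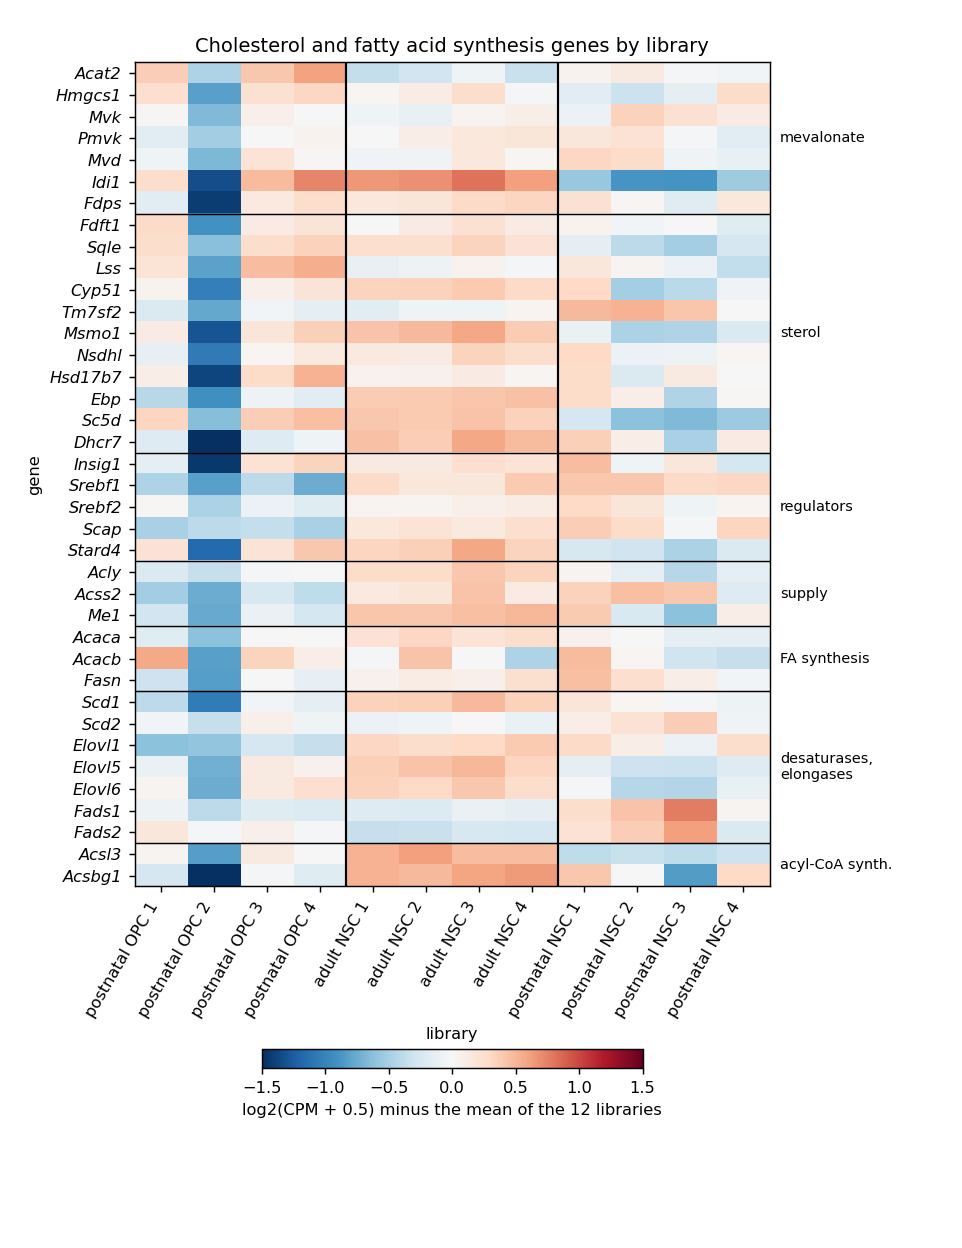
Level of each of the 38 genes in each library, as log2(CPM + 0.5) minus the mean over the 12 libraries, with genes grouped by role and colours ending at 1.5 in each direction. Postnatal OPC 2 is blue for nearly the whole set, whereas the 4 adult NSC libraries look alike, and Idi1, Sc5d and Acsl3 are low in all 4 postnatal NSC libraries.

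**Figure D2:**
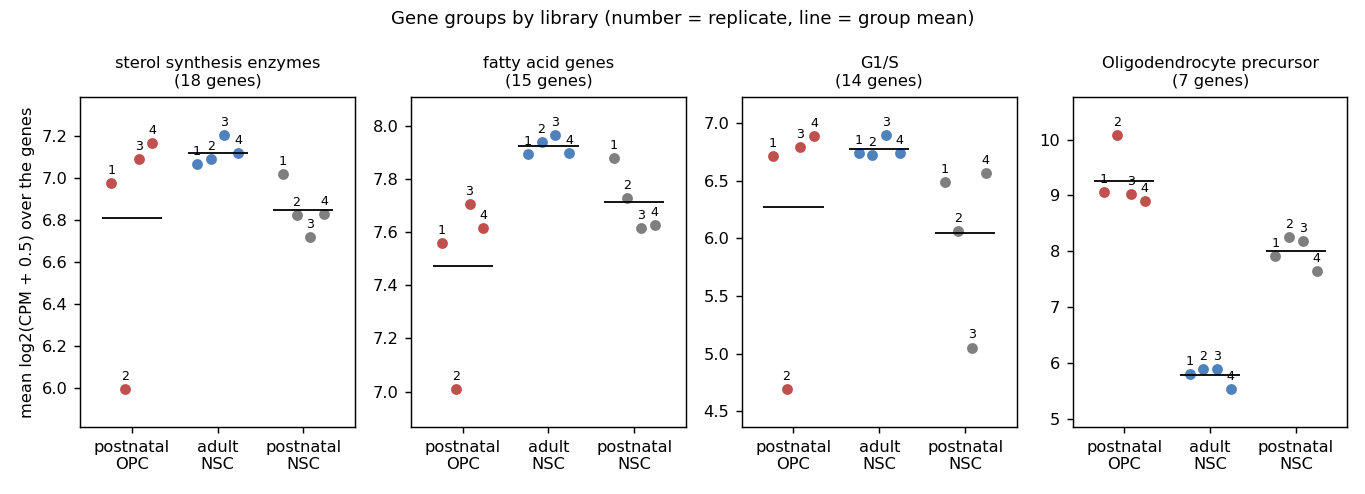
Mean log2(CPM + 0.5) per library over 18 sterol synthesis enzymes, 15 fatty acid genes, 14 G1/S genes and 7 OPC markers, with the replicate number at each point and a line at the group mean. Postnatal OPC 2 is lowest of the 12 libraries in the first 3 panels and highest in the last, and each panel has its own range on the y axis.

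Levels of different genes were compared as TPM, in which counts are divided by the length of the gene's exons. The highest level in the set was that of Scd2, the main stearoyl-CoA desaturase gene of brain, at 2128 ± 220.4 TPM in postnatal OPC, 2158 ± 104 TPM in adult NSC and 2592 ± 329.8 TPM in postnatal NSC (SD, n = 4). Hmgcs1, for the synthase that makes HMG-CoA, had 766 ± 221, 790.4 ± 80.7 and 713 ± 132 TPM, and Fads2, for the delta-6 desaturase of polyunsaturated fatty acids, had 606 ± 39.1, 477 ± 29.4 and 724 ± 171 TPM. The ranges of Hmgcs1 and Fads2 overlapped in OPC and postnatal NSC, so their order there is within the spread. Scd1, the close relative of Scd2, was far lower, at 218 ± 56.9, 367 ± 24.8 and 293 ± 24.5 TPM. At the other end, Acacb, for the acetyl-CoA carboxylase linked to mitochondria, was at 0.306 ± 0.157, 0.275 ± 0.102 and 0.276 ± 0.117 TPM, while Acaca, for the cytosolic carboxylase, was at 30.0 ± 5.06, 40.4 ± 1.78 and 33.4 ± 2.36 TPM.

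The promoters of the genes were read because SREBPs act at their targets together with the CCAAT-binding factor NF-Y and the GC-box factor Sp1. RefSeq promoter windows of GRCm38.p6 were matched by symbol for 31 of the 38 genes, and the 250 bases before the RefSeq transcript start were searched on both strands. CCAAT was found in 25 of the 31 (80.6%), against 37.5% of 27025 genes with a window, and the GC-box letters GGGCGG in 24 (77.4%), against 35.4%. The E-box CACGTG was found in 6 (19.4%), against 6.86%. The sterol regulatory element letters TCACNCCAC were found in 1 of the 31, Hmgcs1 (3.23%), and in 331 of the 27025. The 27025 genes were not limited to those that passed the filter on low counts, as all 31 did. Shares among the genes that passed were not computed, so the higher shares cannot be read as particular to this set. The windows of 4 genes are shown, the one with the sterol regulatory element letters (Hmgcs1), those of the sterol enzyme genes that rose both in OPC and in adult NSC against postnatal NSC (Idi1 and Sc5d, below), and fatty acid synthase (Fasn). Capitals mark CCAAT or its reverse complement ATTGG, and TCACNCCAC in Hmgcs1.
Hmgcs1, chr13:119690101-119690350, plus strand: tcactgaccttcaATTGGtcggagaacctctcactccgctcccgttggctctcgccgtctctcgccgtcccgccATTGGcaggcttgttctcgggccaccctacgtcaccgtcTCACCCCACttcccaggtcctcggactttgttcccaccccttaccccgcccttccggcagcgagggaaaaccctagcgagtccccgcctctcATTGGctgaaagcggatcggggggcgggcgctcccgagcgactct
Idi1, chr13:8885356-8885605, plus strand: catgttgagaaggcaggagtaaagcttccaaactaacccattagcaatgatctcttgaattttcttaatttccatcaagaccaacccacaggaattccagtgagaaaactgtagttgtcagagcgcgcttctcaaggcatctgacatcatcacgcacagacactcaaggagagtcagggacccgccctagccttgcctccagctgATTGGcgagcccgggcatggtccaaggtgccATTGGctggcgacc
Sc5d, chr9:42264301-42264550, minus strand: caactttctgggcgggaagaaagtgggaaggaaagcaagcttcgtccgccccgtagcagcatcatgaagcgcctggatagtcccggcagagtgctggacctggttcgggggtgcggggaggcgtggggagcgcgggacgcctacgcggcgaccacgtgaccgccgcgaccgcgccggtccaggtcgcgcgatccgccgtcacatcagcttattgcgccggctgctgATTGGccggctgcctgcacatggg
Fasn, chr11:120824548-120824797, minus strand: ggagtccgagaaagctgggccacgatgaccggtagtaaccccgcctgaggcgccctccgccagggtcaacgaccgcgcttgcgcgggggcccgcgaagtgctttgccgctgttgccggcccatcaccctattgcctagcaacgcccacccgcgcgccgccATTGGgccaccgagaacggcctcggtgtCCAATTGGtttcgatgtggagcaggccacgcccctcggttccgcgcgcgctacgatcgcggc
Hmgcs1 holds 3 CCAAT letters and Fasn 3, of which a pair overlaps in the run CCAATTGG, while Idi1 holds 2 and Sc5d 1. The window of Idi1 reaches into the gene as GENCODE M21 draws it, which starts at chr13:8885501. A match describes letters in the window and not binding, and a window without one says nothing of the factor.

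Reads of some of these genes cannot be assigned with certainty: 15 overlap exons of another gene, and 6, Idi1, Fdps, Fdft1, Acat2, Acaca and Me1, share at least 20% of their 50-base words with another annotated gene.

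Comparing postnatal OPC with postnatal NSC sets monolayer cells driven toward the oligodendrocyte lineage against the neurospheres of the same age, and lineage, culture form and growth factors cannot be told apart. The postnatal NSC libraries also held more counts. With every library thinned to the total of the smallest, 37 of the 38 genes kept their direction and their side of the threshold. In 1 the sign of an uncalled change turned. Of the 5 regulator and transfer genes 3 fell, Srebf1, Srebf2 and Scap, and so did Acss2, Fasn, Fads1, Elovl1 and the sterol reductase gene Tm7sf2. Idi1 and Sc5d, an enzyme gene from each arm of cholesterol synthesis, rose. That is 2 genes that rose, 8 that fell and 28 not called, or 26.3% of the 38 called against 45.1% of all genes tested (22.4% higher and 22.7% lower), by edgeR's quasi-likelihood test with Benjamini-Hochberg adjustment at a threshold of 0.05. The median log2 fold change was -0.22 over the 38 genes and -0.0083 over all genes tested. In 6 of the 38 all OPC libraries lay below all postnatal NSC libraries (15.8%, against 16.9% of all genes) and in 0 above (against 18.0% of all genes). The shares that fell (21.1%) and that lay below were near those of all genes. The shares that rose (5.26%) and that lay above were well under them. Without postnatal OPC 2, 10 rose and 7 fell, against 21.9% higher and 26.0% lower of all genes in that fit, and the median was -0.043. Without that library and postnatal NSC 3, 11 rose and 12 fell, against 26.4% and 28.0% of all genes. Idi1 was not called without any single one of postnatal OPC 1, 3 or 4 or postnatal NSC 2 or 3, which left Sc5d as the 1 gene that rose.

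Among the regulators, Srebf1, which encodes the SREBP that acts mainly on fatty acid genes, had 243, 190.1, 255 and 199 CPM in postnatal OPC 1 to 4 and 441, 442, 408 and 415 CPM in postnatal NSC 1 to 4. The groups did not overlap, and postnatal OPC 2 was only slightly below the other OPC libraries. The log2 fold change was -0.95 ± 0.10 (SE; edgeR quasi-likelihood adjusted p = 2.55e-05). Scap, for the escort of the SREBPs, had 96.8, 104, 106 and 97.3 CPM in OPC and 177, 164, 134 and 170.1 CPM in postnatal NSC, also without overlap, with a log2 fold change of -0.67 ± 0.086 (edgeR adjusted p = 7.77e-05). Srebf1 lies at chr11:60199089-60222581 on the minus strand and Scap at chr9:110333288-110384950 on the plus strand (GRCm38). Of the exon bases of Srebf1 3.11% overlap other genes, Rai1 on the opposite strand and Mir6922 on the same strand. Of those of Scap 13.2% overlap 5830462I19Rik on the opposite strand, which averaged at most 0.0132 CPM in any group. Scap was one of the few genes of the set whose level in postnatal OPC 2 was like that of the other OPC. Without that library the changes were -0.91 for Srebf1 and -0.72 for Scap.

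Srebf2, for the SREBP that acts mainly on cholesterol genes, had 430.4, 305, 399.6 and 374 CPM in OPC and 523, 480.5, 407 and 437 CPM in postnatal NSC. The groups overlapped, and the log2 fold change of -0.29 ± 0.11 passed narrowly (edgeR adjusted p = 0.0445). It was not called without postnatal OPC 2, 3 or 4 or postnatal NSC 1 or 2 (adjusted p of 0.0586 to 0.0914, and 0.0151 to 0.12 over the edgeR settings, 9 of 17 of which called it). Insig1, whose protein retains SCAP in the endoplasmic reticulum and which is itself an SREBP target, had 251, 102, 324 and 351 CPM in OPC and 383, 266, 314 and 233 CPM in postnatal NSC, with no call at -0.22 ± 0.29. Stard4, for a protein that carries sterol between membranes, had 117, 44.6, 117 and 133 CPM in OPC and 85.2, 82.0, 72.6 and 86.7 CPM in postnatal NSC. Only postnatal OPC 2 lay below the neurospheres, and the log2 fold change was 0.33 ± 0.25 with it, not called, and 0.56 ± 0.091 without it (edgeR adjusted p = 0.000541, and 0.000287 to 0.593 over the edgeR settings).

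In the mevalonate arm, Idi1 encodes the isomerase that interconverts the pair of 5-carbon isoprenoid units. It had 313, 104, 361 and 433 CPM in OPC and 175, 141, 139.5 and 179.8 CPM in postnatal NSC. OPC 1, 3 and 4 lay above all postnatal NSC libraries and OPC 2 below all of them. The log2 fold change was 0.93 ± 0.31 (edgeR adjusted p = 0.0269) and 1.19 ± 0.13 without postnatal OPC 2 (adjusted p = 3.34e-05). Leaving out another library removed the call, without postnatal OPC 1, 3 or 4 or postnatal NSC 2 or 3 (adjusted p of 0.056 to 0.0904, and 2.53e-05 to 0.0904 over the edgeR settings, 10 of 17 of which called it). In the sterol arm, Sc5d, for the desaturase that makes 7-dehydrocholesterol, had 129, 66.1, 133 and 141 CPM in OPC and 86.2, 67.0, 65.0 and 70.2 CPM in postnatal NSC. The same 3 OPC libraries were above every postnatal NSC library, while OPC 2 lay within their range. The change was 0.70 ± 0.19 (edgeR adjusted p = 0.00945), called in every edgeR setting.

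Tm7sf2, for a sterol C14-reductase, went the other way. It had 42.4, 28.8, 47.8 and 44.4 CPM in OPC and 69.1, 70.6, 65.9 and 49.6 CPM in postnatal NSC, with no overlap and a log2 fold change of -0.64 ± 0.15 (edgeR adjusted p = 0.00434). Part of this gene, 12.1% of its exon bases, overlaps Vps51 on the same strand. Sqle, for squalene epoxidase, a rate-limiting enzyme, had 329.6, 178, 329 and 348 CPM in OPC and 249, 208, 192 and 229.8 CPM in postnatal NSC, with a change of 0.43 ± 0.17 that was not called. Without postnatal OPC 2 it was 0.58 ± 0.09 (edgeR adjusted p = 0.000352, and 0.000114 to 0.17 over the edgeR settings). Acat2, Lss and Msmo1 likewise passed without that library, at 0.40, 0.43 and 0.50, so that 6 of the 18 sterol enzymes rose and 1 fell in that fit (33.3% and 5.56%, against 21.9% and 26.0% of all genes in it). With that library 2 rose and 1 fell (11.1% and 5.56%, against 22.4% and 22.7%). All 18 were lowest in postnatal OPC 2 among the OPC libraries, so leaving it out could only raise their OPC means. The 6 are no separate support for a rise. Acat2 makes acetoacetyl-CoA, Lss closes the sterol ring system as lanosterol synthase, and Msmo1 removes methyl groups from carbon 4.

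Of the sterol enzymes never called here in either fit, Hmgcs1 had 1484, 706, 1456 and 1541 CPM in OPC and 1099.8, 996, 1117 and 1499 CPM in postnatal NSC. Its change was 0.14 ± 0.21, and 0.32 ± 0.12 without postnatal OPC 2 (edgeR adjusted p = 0.0525, and 0.0525 to 0.917 over the edgeR settings). Cyp51, for lanosterol demethylase, averaged 274 ± 87.5 CPM over the OPC libraries and 269 ± 70.9 CPM over those of postnatal NSC. The remaining mevalonate genes were the kinase genes Mvk and Pmvk, the decarboxylase gene Mvd and the farnesyl diphosphate synthase gene Fdps, with log2 fold changes of -0.27, -0.20, -0.21 and -0.24. For the sterol arm these were 0.03 for Fdft1 (squalene synthase), -0.23 for Nsdhl and -0.025 for Hsd17b7, which act together in demethylation at carbon 4, -0.38 for Ebp, a sterol isomerase, and -0.44 for Dhcr7, the reductase for 7-dehydrocholesterol.

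Of the 15 fatty acid genes 4 fell and 0 rose by edgeR, and at an unadjusted p under 0.05 6 were lower and 0 higher. DESeq2 also called 4 lower and 0 higher. The 4 are 26.7% of the 15, near the 22.7% of all genes tested that fell. Acss2, for the enzyme that makes acetyl-CoA from acetate, had 55.5, 47.7, 67.6 and 61.5 CPM in OPC and 102, 110.0, 106 and 70.1 CPM in postnatal NSC. The groups did not overlap, and the log2 fold change was -0.74 ± 0.15 (edgeR adjusted p = 0.0015). Acly, which makes acetyl-CoA from citrate, showed 408, 371, 464 and 469.7 CPM in OPC and 486, 427, 352 and 429 CPM in postnatal NSC, with no call at 0.016 ± 0.11. Me1, for the malic enzyme that supplies NADPH, was not called at -0.29 ± 0.19. Fasn, for fatty acid synthase, had 813, 567, 1005 and 923 CPM in OPC and 1377, 1193, 1079 and 978 CPM in postnatal NSC. These groups overlapped through OPC 3 and postnatal NSC 4, and the log2 fold change of -0.48 ± 0.16 (edgeR adjusted p = 0.0248) was not called without postnatal NSC 1 (adjusted p of 0.0598, and 0.0129 to 0.073 over the edgeR settings, 15 of 17 of which called it).

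Among the desaturases and elongases, Fads1, for the delta-5 desaturase, had 471, 380.1, 439.5 and 432 CPM in OPC and 600.5, 669, 848 and 511 CPM in postnatal NSC. There was no overlap, and postnatal NSC 3 was the highest library. The log2 fold change was -0.61 ± 0.13 (edgeR adjusted p = 0.00262). Elovl1, for an elongase of very long saturated chains, had 19.9, 20.1, 25.5 and 23.9 CPM in OPC and 37.4, 32.7, 28.7 and 36.8 CPM in postnatal NSC, again without overlap, and changed by -0.60 ± 0.11 (edgeR adjusted p = 0.000932). Scd2 was at 4418, 3559, 4772 and 4330.4 CPM in OPC and 4869, 5264, 5845 and 4382 CPM in postnatal NSC, with overlapping groups and no call at -0.25 ± 0.11. Scd1 and Fads2 were not called at -0.39 ± 0.17 and -0.23 ± 0.14. Scd2 and Fads2 passed as lower without postnatal NSC 4, and Scd1 without postnatal OPC 3, at -0.36, -0.40 and -0.51. Without postnatal OPC 2, Elovl5, Elovl6 and Acsl3 passed as higher at 0.25, 0.36 and 0.39, where with it they were at 0.13, 0.21 and 0.24. The genes called in every edgeR setting were Sc5d as higher, and Srebf1, Scap, Acss2, Fads1, Elovl1 and Tm7sf2 as lower.

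**Figure D3:**
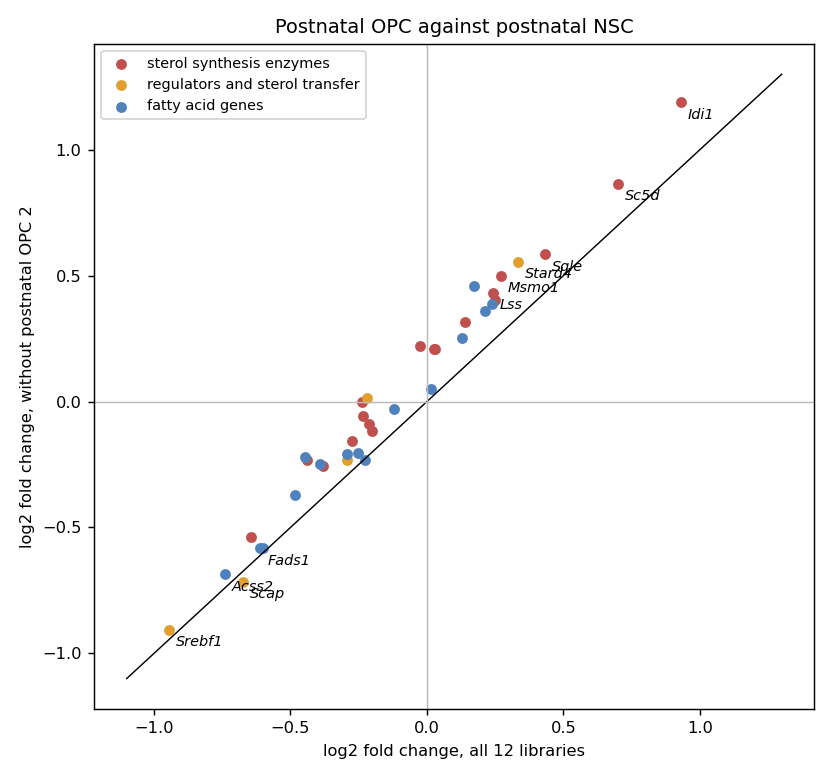
Log2 fold change of each of the 38 genes in postnatal OPC against postnatal NSC, fitted with all 12 libraries (x axis) and without postnatal OPC 2 (y axis), with the line of equality. The sterol synthesis enzymes lie above the line, while Srebf1, Scap, Acss2 and Fads1 stay near it.

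Adult and postnatal NSC were neurospheres grown in the same way from animals of different age. Cell makeup and depth differed too: 5 of the 7 OPC markers and 4 of 6 mature oligodendrocyte markers fell in adult NSC, and the postnatal NSC libraries held more counts. Of those 6 markers 1, Mobp, rose, at 5.43 ± 1.03 CPM in adult NSC and 1.15 ± 0.66 CPM in postnatal NSC. Age and makeup cannot be told apart. With every library thinned to the total of the smallest, 10 of the 38 genes rose and 3 fell, against 11 and 3 at full depth. The shares of all genes in the thinned fit are not given here. Idi1, Sc5d, Msmo1 and Sqle rose among the sterol enzymes, and Stard4 rose with them. Acly, Me1, Acaca, Elovl5, Elovl6 and Acsl3 rose among the fatty acid genes, whereas Fads1, Fads2 and Tm7sf2 fell. That is 11 genes that rose, 3 that fell and 24 not called, or 36.8% of the 38 called against 53.1% of all genes tested (25.2% higher and 27.9% lower). The share that rose, 28.9%, was near that of all genes, and the share that fell, 7.89%, was below it. The median log2 fold change was 0.17 over the 38 genes and -0.025 over all genes tested. In 15 genes all adult libraries lay above all postnatal NSC libraries (39.5%, against 27.2% of all genes tested) and in 3 below (7.89%, against 26.0%), while 53.2% of all genes did not overlap in either direction. The postnatal NSC libraries serve as reference in this comparison and in the one above, so the 2 are not independent.

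The spread in this fit is shared with the OPC libraries, among which postnatal OPC 2 stood apart. With only the 2 groups in the fit, 15 genes rose and 4 fell (against 25.2% and 28.1% of all genes), and without postnatal NSC 3 and postnatal OPC 2 together 16 rose and 5 fell (against 27.8% and 30.1%). Leaving out single libraries moved the number that rose to between 5, without postnatal NSC 2, and 10, and it was 7 without postnatal NSC 3 or without adult NSC 3. Shares of all genes are not given here for those fits without single libraries. The genes called in every edgeR setting were Idi1, Sc5d, Acly, Acsl3 and Elovl5 as higher, and Fads1 and Fads2 as lower. Summed G1/S genes were at 2022 to 2285 CPM in adult NSC and 689 to 1861 CPM in postnatal NSC, and their part in the higher levels was not tested.

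Idi1 had the largest log2 fold change of the 38 genes, with 409, 421, 458 and 399 CPM in adult NSC 1 to 4, far above the values of postnatal NSC given above. The groups did not overlap, at a log2 fold change of 1.41 ± 0.31 (edgeR quasi-likelihood adjusted p = 0.00267). Of the 50-base words in its exons 25.3% also occur in the predicted gene Gm13502, which was at 66.3 CPM in OPC, 93.4 CPM in adult NSC and 30.2 CPM in postnatal NSC, so reads may be split between them. Sc5d had 136, 135, 139 and 131 CPM in adult NSC, all above the postnatal NSC libraries, and a change of 0.90 ± 0.19 (edgeR adjusted p = 0.0019). Msmo1 had 249.8, 259, 277 and 242 CPM in adult NSC and 173, 133, 135 and 159 CPM in postnatal NSC, and Sqle 324, 322, 344 and 319 CPM in adult NSC. Both were higher in every adult library, at 0.78 ± 0.26 and 0.58 ± 0.17 (edgeR adjusted p = 0.0246 and 0.0143). Msmo1 was not called without adult NSC 3 or postnatal NSC 2 or 3 (adjusted p of 0.0549 to 0.0785, and 0.000101 to 0.0785 over the edgeR settings, 14 of 17 of which called it), and Sqle was not called without postnatal NSC 2 (adjusted p of 0.0531, and 0.000129 to 0.0531 over the edgeR settings, 16 of 17 of which called it).

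Other sterol genes in which the adult and postnatal NSC libraries did not overlap were not called. Ebp was at 22.8, 22.9, 23.2 and 23.7 CPM in adult NSC and 21.1, 18.6, 12.6 and 17.5 CPM in postnatal NSC, and Dhcr7 at 297, 282, 329 and 306 CPM in adult NSC and 280.3, 235, 156 and 238 CPM in postnatal NSC. Their log2 fold changes were 0.41 ± 0.19 and 0.42 ± 0.26, and both passed when only the 2 groups were fitted. Acat2 lay lower in every adult library, with 200.0, 209.9, 244 and 204 CPM in adult NSC and 266, 281, 251 and 249 CPM in postnatal NSC, at -0.29 ± 0.18 without a call. Acat2, too, passed with only the 2 groups, as lower (edgeR adjusted p = 0.0139, and 0.0076 to 0.316 over the edgeR settings). Acat2 shares 39.1% of its 50-base words with Acat3. Tm7sf2 had 43.8, 47.0, 46.9 and 50.6 CPM in adult NSC and overlapped postnatal NSC through 1 library. Its log2 fold change of -0.44 ± 0.15 (edgeR adjusted p = 0.0276) was not called without adult NSC 1, 2 or 3 or postnatal NSC 2 (adjusted p of 0.0568 to 0.0754, and 0.00506 to 0.0754 over the edgeR settings, 11 of 17 of which called it). The remaining sterol enzymes were at -0.17 to 0.47, with Mvk lowest and Cyp51 highest. Cyp51 was at 372 ± 10.4 CPM in adult NSC and passed as higher without postnatal NSC 1 (log2 fold change of 0.62). In all, 3 of 17 edgeR settings called Cyp51 (edgeR adjusted p of 0.0384 to 0.313).

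Of the regulators, Stard4 had 126, 129.6, 151 and 127 CPM in adult NSC, above every postnatal NSC library. Its log2 fold change was 0.71 ± 0.25 (edgeR adjusted p = 0.0292), and it was not called without adult NSC 3 or postnatal NSC 1, 2, 3 or 4 (adjusted p of 0.0534 to 0.0723, and 5.28e-05 to 0.0723 over the edgeR settings, 11 of 17 of which called it). The SREBP genes and Scap did not pass. Srebf1 had 409.9, 378, 377 and 438 CPM in adult NSC and a log2 fold change of -0.09 ± 0.10, Srebf2 one of -0.053 ± 0.11, Scap one of -0.053 ± 0.085 and Insig1 one of 0.079 ± 0.29.

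Among the fatty acid genes, 6 of 15 rose and 2 fell (against 25.2% and 27.9% of all genes tested). Acsl3, for an acyl-CoA synthetase that activates long-chain fatty acids, had 193, 206, 185 and 186 CPM in adult NSC and 103, 107, 103 and 108 CPM in postnatal NSC. The groups were far apart with little spread in either, at 0.87 ± 0.16 (edgeR adjusted p = 0.000905). Acly had 573, 575, 625 and 596 CPM in adult NSC and changed by 0.48 ± 0.11 (edgeR adjusted p = 0.00253). Elovl5, for an elongase of polyunsaturated chains, had 261, 273, 287 and 254 CPM in adult NSC and 183, 164, 162 and 177 CPM in postnatal NSC, at 0.65 ± 0.15 (edgeR adjusted p = 0.00319). For these 3 genes no adult library came down to the level of a postnatal one. Elovl6, which extends palmitate to stearate, rose by 0.57 ± 0.18 (edgeR adjusted p = 0.0171) and was not called without postnatal NSC 2 (adjusted p of 0.069, and 0.00089 to 0.069 over the edgeR settings, 16 of 17 of which called it).

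Me1 and Acaca passed narrowly. Me1 had 149, 148, 153 and 159 CPM in adult NSC and 147, 95.1, 72.8 and 119.9 CPM in postnatal NSC, and its change of 0.49 ± 0.19 (edgeR adjusted p = 0.0433) was not called without adult NSC 1, 2, 3 or 4 or postnatal NSC 2, 3 or 4 (adjusted p of 0.0659 to 0.147, and 0.00853 to 0.147 over the edgeR settings, 7 of 17 of which called it). Acaca changed by 0.30 ± 0.12 (edgeR adjusted p = 0.0492) and was not called without adult NSC 1, 2, 3 or 4 or postnatal NSC 1, 2, 3 or 4 (adjusted p of 0.0632 to 0.161, and 0.00808 to 0.161 over the edgeR settings, 2 of 17 of which called it). The call of Acaca was also lost with the other size factors, the other filters, thinning and the Y-linked covariate. The genes with which they share words are Gm7049 for Me1 and Gm5182 for Acaca. Acsbg1, for an acyl-CoA synthetase of very long chains, had 443, 432, 465 and 480.4 CPM in adult NSC and 408, 309, 173 and 381 CPM in postnatal NSC. Every adult library was higher and postnatal NSC 3 was far below its group, and the log2 fold change of 0.52 ± 0.31 was not called. Scd1 likewise did not overlap, with 641, 648, 704 and 640.3 CPM in adult NSC and 573, 516, 493 and 477 CPM in postnatal NSC, at 0.35 ± 0.17 without a call. Of 17 edgeR settings 1 called Acsbg1 and 2 called Scd1, as higher (edgeR adjusted p of 0.0187 to 0.372 and 0.00694 to 0.231).

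The desaturase genes that fell lie near each other on chromosome 19 (GRCm38, chr19:10182888-10196877 on the plus strand for Fads1 and chr19:10062765-10101746 on the minus strand for Fads2). Fads1 had 435, 431, 466 and 452 CPM in adult NSC and Fads2 had 558, 559, 598 and 588 CPM in adult NSC and 821, 912, 1084 and 608 CPM in postnatal NSC. No adult library reached a postnatal NSC library for either gene. Their log2 fold changes were -0.56 ± 0.13 and -0.57 ± 0.14 (edgeR adjusted p = 0.00383 and 0.00454). In postnatal NSC both genes were highest in library 3 and lowest in library 4. Scd2 was not called at -0.24 ± 0.11, and passed as lower without postnatal NSC 4 (log2 fold change of -0.34). In all, 3 of 17 edgeR settings called Scd2 (edgeR adjusted p of 0.0181 to 0.185). Fasn, Elovl1, Acss2 and Acacb were at -0.08, 0.17, -0.046 and 0.035, with no call.

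**Figure D4:**
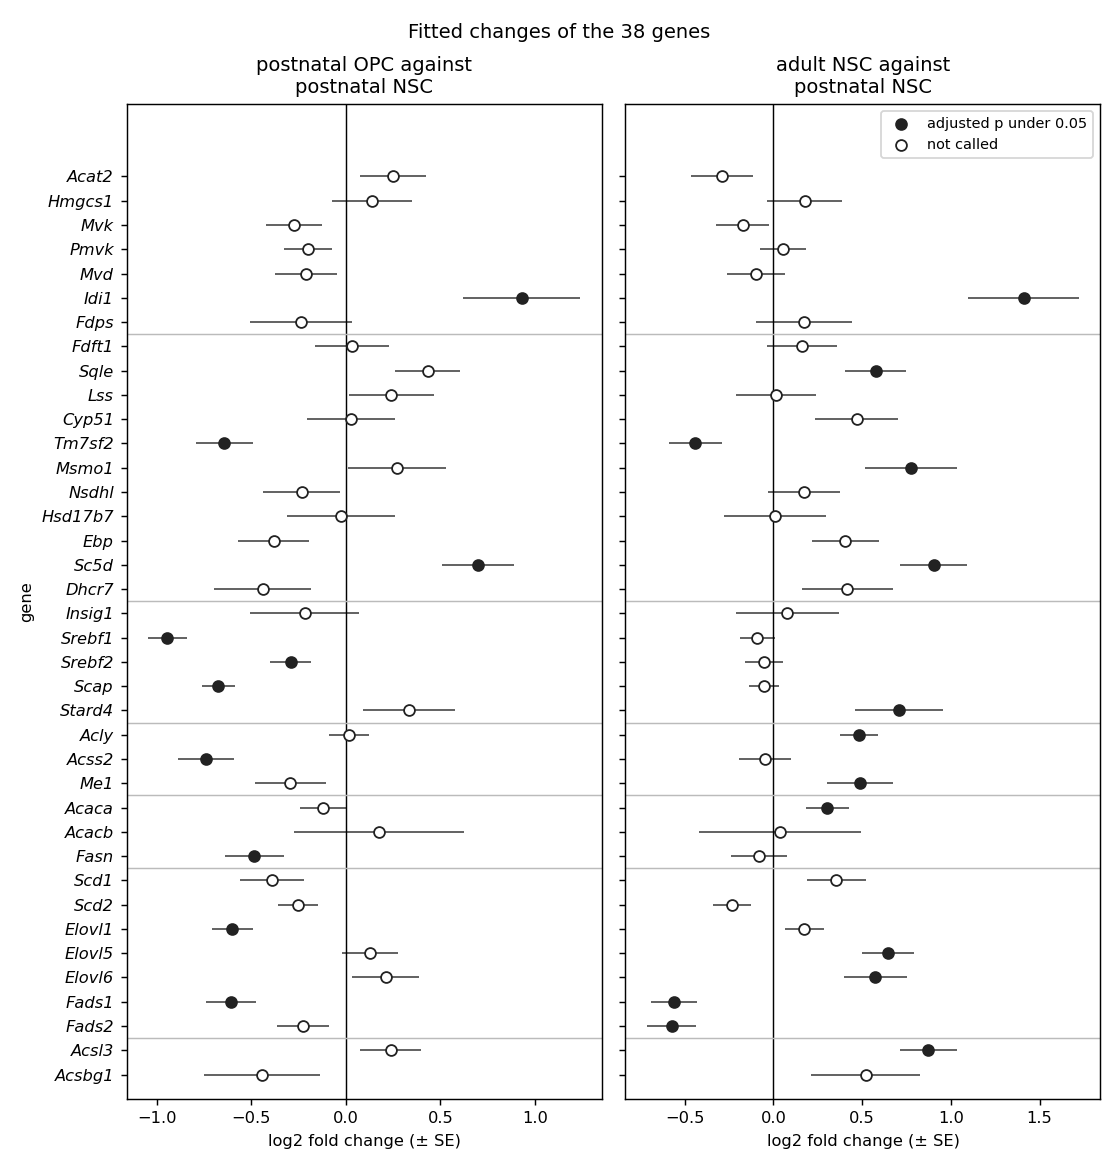
Log2 fold change with its SE for each of the 38 genes, for postnatal OPC against postnatal NSC (left) and adult NSC against postnatal NSC (right), with filled points for genes called at an adjusted p under 0.05 in edgeR's quasi-likelihood test. The regulators Srebf1, Srebf2 and Scap are filled on the left only, and Acly, Elovl5, Elovl6 and Acsl3 on the right only, which is not a test of the difference between the panels.

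**Figure D5:**
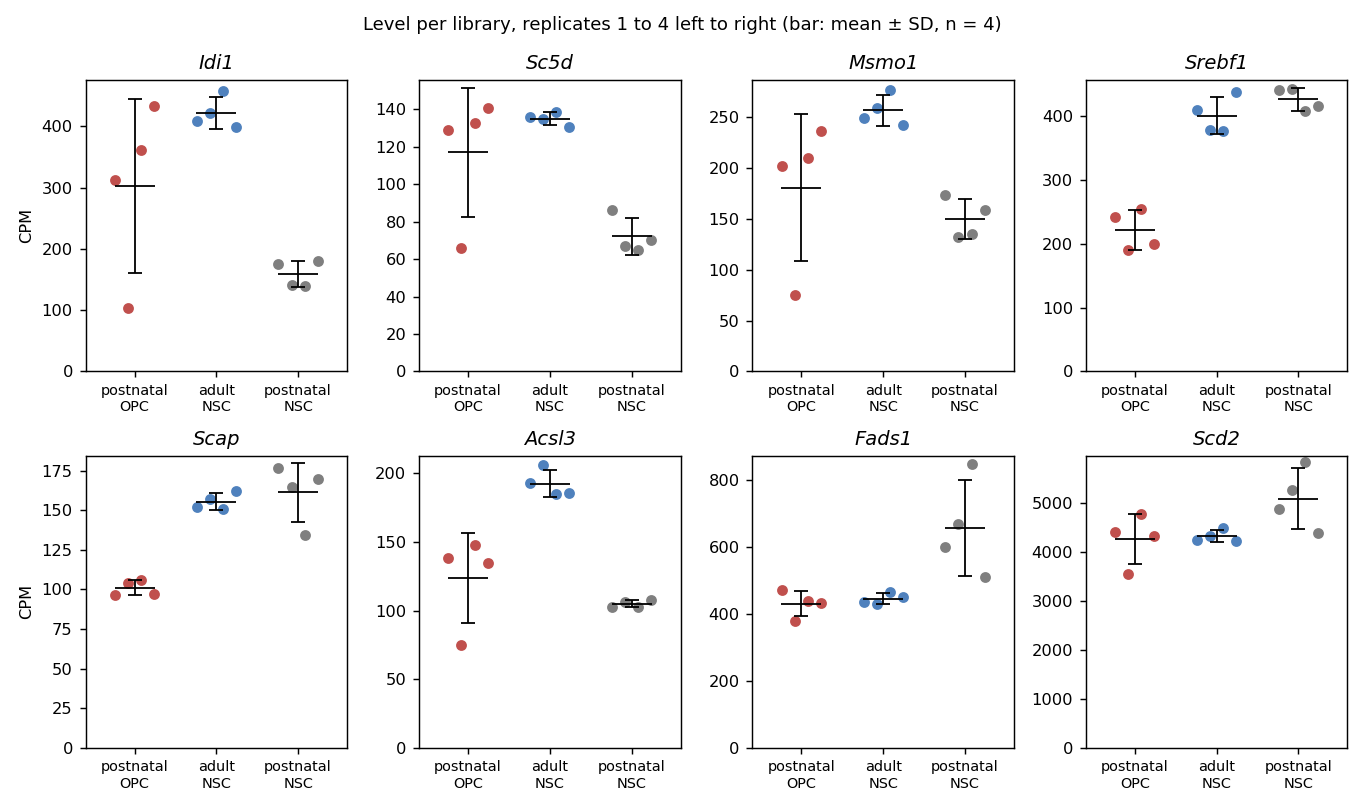
CPM of 8 of the genes in each library, with the mean and SD of the 4 libraries of a group and y axes that start at 0. Srebf1 and Scap are low in all 4 OPC libraries, Idi1, Sc5d and Msmo1 are low in postnatal OPC 2 and in postnatal NSC, Acsl3 is highest in adult NSC, and Fads1 is highest in postnatal NSC.

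Postnatal OPC and adult NSC differ in age, lineage and culture together, which cannot be told apart, and the difference between them was fitted directly. Fatty acid genes were lower in OPC: 10 of the 15 fell and 0 rose by edgeR, while at an unadjusted p under 0.05, and by DESeq2, 10 were lower and 1 was higher. The 10 are 66.7% of the 15, against 24.7% of all genes tested. Over the 38 genes, 14 fell, 1 rose and 23 were not called, or 39.5% called against 51.0% of all genes tested (26.3% higher and 24.7% lower). The share that fell was 36.8%. The median log2 fold change was -0.39 over the 38 genes and 0.0065 over all genes tested. All OPC libraries lay below all adult NSC libraries in 18 genes (47.4%, against 28.7% of all genes tested) and above in 1 (2.63%, against 27.9%), while 56.6% of all genes did not overlap in either direction. Without postnatal OPC 2, 13 fell and 2 rose, against 23.0% lower and 24.4% higher of all genes in that fit, and the median was -0.16. Without that library and postnatal NSC 3, 14 fell and 3 rose, against 27.5% and 28.0% of all genes. Acat2, the gene that rose with all libraries, lost its call without any single one of postnatal OPC 1, 3 or 4 or adult NSC 1, 2 or 4.

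All 3 supply genes fell without overlap of the libraries. Me1 had 91.2, 66.2, 104 and 93.2 CPM in OPC, and Acss2 had 89.0, 91.4, 108 and 87.4 CPM in adult NSC. The log2 fold changes were -0.78 ± 0.19 for Me1, -0.69 ± 0.15 for Acss2 and -0.47 ± 0.11 for Acly (edgeR quasi-likelihood adjusted p = 0.00418, 0.00185 and 0.00292). Both acyl-CoA synthetase genes fell. Acsbg1 had 258, 99.6, 303 and 272 CPM in OPC, all under the adult NSC values above, and changed by -0.96 ± 0.31 (edgeR adjusted p = 0.0206). Acsl3 had 138, 75.2, 148 and 134 CPM in OPC and changed by -0.64 ± 0.16 (edgeR adjusted p = 0.00581). Among the elongases and desaturases Elovl1 fell by 0.77 ± 0.11, Scd1 by 0.75 ± 0.17 and Elovl5 by 0.52 ± 0.15 on the log2 scale. Scd1 had 383, 244, 489.8 and 454 CPM in OPC, below all adult NSC libraries, and Elovl5 189.7, 123, 223 and 213 CPM. Fads2 lay the other way, with 795, 699.8, 743 and 692 CPM in OPC, all above adult NSC, at 0.35 ± 0.14 and narrowly without a call (edgeR adjusted p = 0.0524).

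Acaca and Fasn fell by 0.43 ± 0.12 and 0.40 ± 0.16 on the log2 scale (edgeR adjusted p = 0.011 and 0.0482). Fasn was not called without postnatal OPC 1 or 2 or adult NSC 1, 2, 3 or 4 (adjusted p of 0.0715 to 0.108, and 0.0226 to 0.108 over the edgeR settings, 2 of 17 of which called it), and its change was -0.25 without postnatal OPC 2. The call of Fasn was also lost with the other size factors, the other filters, thinning, the Y-linked covariate, the fit of 2 groups and without both postnatal NSC 3 and postnatal OPC 2. The regulators Srebf1 and Scap fell here too, at -0.85 ± 0.10 and -0.62 ± 0.086 (edgeR adjusted p = 2.83e-05 and 8.86e-05), with no overlap of the libraries. Of the 18 sterol enzymes, Dhcr7 and Ebp fell and Acat2 rose (11.1% and 5.56%, against 24.7% and 26.3% of all genes tested). Both shares were well under those of all genes. Dhcr7 had 192, 77.8, 191 and 209 CPM in OPC and Ebp 12.9, 8.93, 16.5 and 15.4 CPM in OPC, both below all adult NSC libraries, at -0.86 ± 0.26 and -0.79 ± 0.19 (edgeR adjusted p = 0.0148 and 0.00428). Acat2, with 331, 186, 338 and 389 CPM in OPC, rose by 0.54 ± 0.18 (edgeR adjusted p = 0.0222) and was not called without postnatal OPC 1, 3 or 4 or adult NSC 1, 2 or 4 (adjusted p of 0.0526 to 0.0725, and 2.71e-05 to 0.0725 over the edgeR settings, 11 of 17 of which called it). Without postnatal OPC 2, Lss passed as higher at 0.45 (adjusted p = 0.0106, and 0.00653 to 0.79 over the edgeR settings). Cyp51, Msmo1, Srebf2 and Elovl6 lay below adult NSC in every OPC library without a call, at -0.44, -0.51, -0.24 and -0.36. The 13 genes called in every edgeR setting were all lower in OPC, and were the 14 that fell other than Fasn.

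Genes next to these pathways were read from lists, whose counts stand against these shares of all genes tested: 22.4% rose and 22.7% fell in OPC against postnatal NSC, 25.2% and 27.9% in adult against postnatal NSC, and 26.3% and 24.7% in OPC against adult NSC. A list of 14 held genes of SREBP processing, further SREBP targets and related genes, and whether each responds to SREBPs here was not tested. Of the 14, 0 rose and 4 fell in OPC against postnatal NSC by edgeR (1 and 4 at an unadjusted p under 0.05, 0 and 5 by DESeq2). In adult against postnatal NSC 4 rose and 3 fell. In OPC Thrsp, a lipogenic regulator, fell by 1.77 ± 0.32 on the log2 scale, and Stard5 and Pcyt2 were at -0.57 ± 0.14 and -0.48 ± 0.094. In adult NSC Mbtps2, for the site-2 protease that releases the SREBPs, and Insig2, the relative of Insig1, rose by 0.82 ± 0.12 and 0.68 ± 0.14, as did Stard5 by 0.91 ± 0.14, whereas Gpam and Pcyt2 fell at -0.76 ± 0.17 and -0.52 ± 0.094 (edgeR adjusted p = 0.000194, 0.00181, 0.000245, 0.00335 and 0.000811). In OPC against adult NSC 2 of the 14 rose and 6 fell. The shares of the 14 that fell in OPC against postnatal NSC (28.6%) and that rose or fell in adult NSC (28.6% and 21.4%) were near those of all genes.

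Of 9 genes of the isoprenoid branch, which uses the farnesyl diphosphate that the mevalonate arm makes, 2 rose and 1 fell in OPC against postnatal NSC, 5 rose and 3 fell in adult against postnatal NSC, and 1 rose and 4 fell in OPC against adult NSC. Ggps1, for the synthase of the next longer isoprenoid, was at 39.8 ± 1.61 CPM in OPC, 56.4 ± 1.93 CPM in adult NSC and 23.4 ± 2.30 CPM in postnatal NSC. It rose in OPC at 0.77 ± 0.084 and in adult NSC at 1.27 ± 0.084 against postnatal NSC (edgeR adjusted p = 2.81e-05 and 7.24e-07). Pggt1b, for a subunit of the enzyme that attaches it to proteins, rose in OPC by 0.59 ± 0.088. Pdss1 and Nus1 rose in adult NSC by 0.92 ± 0.26 and 0.76 ± 0.13.

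Of 16 tested genes of sterol export, uptake, storage and turnover, 2 rose and 7 fell in OPC against postnatal NSC, 2 rose and 10 fell in adult against postnatal NSC, and 6 rose and 4 fell in OPC against adult NSC. Abca1, for a cholesterol exporter, was at 67.2 ± 13.0 CPM in OPC, 30.9 ± 8.28 CPM in adult NSC and 151 ± 96.2 CPM in postnatal NSC, and fell against postnatal NSC at -1.17 ± 0.37 and -2.29 ± 0.39 (edgeR adjusted p = 0.0219 and 0.000514). In OPC Nr1h2, which encodes a sterol-sensing liver X receptor, and Scarb1, for a lipoprotein receptor, fell at -0.93 ± 0.19 and -0.91 ± 0.20. In adult NSC Cyp46a1, for the enzyme that makes 24-hydroxycholesterol, and Lrp1, for a lipoprotein receptor, fell at -2.59 ± 0.44 and -1.07 ± 0.28. Vldlr, for the very low density lipoprotein receptor, rose in OPC by 0.45 ± 0.11 and in adult NSC by 0.51 ± 0.11 against postnatal NSC.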

How the data were processed

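The authors deposited 1 table of raw counts per Ensembl gene for 12 libraries (3 groups of 4). Per the submitters' processing notes it was made with FastQC, STAR and featureCounts 1.22.2 on GRCm38, and per the labels the library kit was stranded. The settings, the annotation release and the use of strand and of multi-mapping reads are not given in the sources used here. Total counts were 16756231 to 54801726 per library, and their number limits the precision of low genes. Postnatal NSC libraries were the deepest.

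Symbols came from GENCODE M21 (55141 of 55401 identifiers matched). Genes were filtered with filterByExpr (minimum count 10, minimum total 15), scaled by TMM and tested in 1 fit of all 12 libraries with edgeR 4.0.16 (limma 3.58.1, R 4.3.3) by the quasi-likelihood test, with Benjamini-Hochberg adjustment over 16135 genes and a threshold of 0.05. The script was tested on simulated data. CPM uses the scaled library sizes, and TPM the union of a gene's exons. Groups do not overlap where every library of 1 lies beyond every library of the other. Alternatives were DESeq2 1.42.0, other size factors and filters, thinning to the smallest library, a replicate block, a fit of 2 groups, Y-linked expression as a covariate, and leaving out libraries. All 38 genes are named. Of the other lists, those named are among the up to 3 genes in each direction with the largest log2 fold change of those that passed the test and reached 5 CPM in a group, per comparison, beside up to 3 markers of a cell type. The members and lists were chosen with earlier results of these data known. Libraries of a group differed by more than counting noise, so none was taken for a duplicate.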

Additional observations from a re-analysis of the deposited data

Results flagged for a closer look

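Each of the 38 genes was checked in each group of 4 libraries for a single library far from the other 3 by Dixon's gap ratio. Chance marks about 1 in 20 such groups, and 8 of 114 were marked. In 6 of them the library was postnatal OPC 2, and it was low. Hmgcs1 was at 706 CPM there, against 1456 to 1541 CPM in the other OPC libraries. Mvk was at 36.0 CPM against 57.0 to 60.3 CPM, Sqle at 178 CPM against 329 to 348 CPM, and Cyp51 at 144 CPM against 305 to 337 CPM. Sc5d was at 66.1 CPM against 129 to 141 CPM, and Dhcr7 at 77.8 CPM against 191 to 209 CPM. All of these are sterol synthesis enzymes. In the other 2 sets adult NSC 3 was high, with Stard4 at 150.8 CPM against 126 to 129.6 CPM in the other adult NSC libraries, and Scd1 at 704 CPM against 640.3 to 648 CPM.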

How the results depend on the processing

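Over 2052 refitted values of the 38 genes, 1838 kept their direction and their side of the threshold, 80 lost the call and 51 gained one. In the other 83 the sign of an uncalled change turned, in 20 of 114 gene comparisons, with a lowest adjusted p of 0.0863. For postnatal OPC against postnatal NSC, 2 genes rose with all libraries, 1 with only the 2 groups, 1 with Y-linked expression as a covariate, 11 without both postnatal NSC 3 and postnatal OPC 2, and 1 to 10 when single libraries were left out. The median log2 fold change over the 38 genes, -0.22, was -0.064 without both and -0.28 to -0.043 without single libraries. For adult against postnatal NSC, 11 genes rose with all libraries and 5 to 10 without single libraries, and the 3 that fell became 5 without both. With no filter on low counts the median over all genes was -0.14 there. For postnatal OPC against adult NSC, the 1 gene that rose became 2 with upper quartile factors, with only the 2 groups, with the covariate and by DESeq2, 3 without both, and 0 to 2 without single libraries. The median of -0.39 was -0.16 without both and -0.49 to -0.16 without single libraries. The cause of these differences was not tested. Shares of all genes are not given for most of these fits, so the counts show only that calls of the 38 genes moved.

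Whether libraries of the same replicate number came from the same litter is not given in the labels. Same-numbered libraries had correlations of -0.36 to 0.32, and 8 of 24 correlated best with their own number. With so few libraries per group these values cannot decide whether litters were shared. With a replicate block 2 genes rose and 7 fell in postnatal OPC against postnatal NSC, 10 and 2 in adult against postnatal NSC, and 1 and 13 in postnatal OPC against adult NSC. The shares of all genes in that fit are not given here, so these counts cannot be set against them. The calls it ended were Srebf2 in the first comparison, Tm7sf2 and Acaca in the next and Fasn in the last. Gene length as the file gives it was not run as an alternative, since the file holds no lengths. Low counts limit Acacb.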

Other observations

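Genes that burn or further modify fatty acids, outside the 38, were read from further lists. Of all genes tested 22.4% rose and 22.7% fell in postnatal OPC against postnatal NSC, 25.2% and 27.9% in adult against postnatal NSC, and 26.3% and 24.7% in OPC against adult NSC. Of 17 genes of fatty acid oxidation, 0 rose and 11 fell in postnatal OPC against postnatal NSC by edgeR (also 0 and 11 at an unadjusted p under 0.05 and by DESeq2), 1 rose and 10 fell in adult against postnatal NSC, and 2 rose and 7 fell in OPC against adult NSC. Acadl, for a long-chain acyl-CoA dehydrogenase, was at 100.4 ± 31.6 CPM in OPC, 305 ± 12.2 CPM in adult NSC and 238 ± 23.8 CPM in postnatal NSC, and fell in OPC against postnatal NSC by 1.25 ± 0.20 on the log2 scale (SE, edgeR quasi-likelihood adjusted p = 0.000358). Acaa2, for a mitochondrial thiolase, fell in OPC at -1.46 ± 0.17 and in adult NSC at -0.79 ± 0.17 against postnatal NSC, and Acads fell in OPC at -1.02 ± 0.12. Cpt1a, for the carnitine transferase that admits fatty acids to mitochondria, fell in adult NSC at -0.96 ± 0.17, and Hadhb rose at 0.41 ± 0.10.

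Of 18 further genes of elongation, desaturation, activation and fatty acid binding, 5 rose and 2 fell in OPC against postnatal NSC, 6 rose and 0 fell in adult against postnatal NSC (8 and 1 at an unadjusted p under 0.05, 7 and 1 by DESeq2), and 6 rose and 6 fell in OPC against adult NSC. Acsl1, for an acyl-CoA synthetase, was at 15.7 ± 2.90 CPM in OPC, 6.14 ± 0.622 CPM in adult NSC and 6.21 ± 0.370 CPM in postnatal NSC, with a rise of 1.34 ± 0.15 in OPC against postnatal NSC. Its relatives Acsl4 and Acsl5 rose in adult against postnatal NSC by 1.58 ± 0.25 and 0.89 ± 0.24. Fabp7, for the brain fatty acid-binding protein, and Elovl4, for an elongase of very long chains, rose in OPC against postnatal NSC by 0.89 ± 0.13 and 0.80 ± 0.086.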
